A study of Mus musculus with 2 samples.

Results

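In pancreatic islets, 7 genes (Nnat, Ppp1r1a, Cdh8, Vstm2l, Prss53, Fam151a and Tmem215) were followed out of 22383 features counted by single-cell RNA-sequencing. They were chosen by their summed UMIs in insulin-expressing cells, which were low in the library labelled TBL/RBKO. Their values in insulin cells are therefore a description of that choice, and no test was made on them. The levels in glucagon, somatostatin and pancreatic polypeptide cells and the spread from cell to cell were not part of the choice. The share of insulin cells with a transcript, however, depends on the sums that were.

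Each group gave 1 library, made from 150 islets of 4 mice aged 5 weeks. The islets were kept overnight at 37 °C in RPMI medium with 10% serum, pooled and dissociated, and the cells were captured with 10x Genomics 3′ chemistry. The control group is labelled wildtype and was, by the study's methods, Cre-negative littermates. The TBL/RBKO group carried Cre recombinase inserted at the Ins1 locus together with loxP-flanked Tbl1x and Tbl1xr1, which encode 2 transcriptional co-factors, so that recombination was aimed at insulin-expressing β-cells. With 1 pooled library per group, there is no spread between animals to measure a difference by, no p-value is given, and every interval covers counting error only, at 95%.

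Pancreatic β-cells make and secrete insulin, and mature β-cells are known by a set of genes for glucose sensing, insulin folding and regulated exocytosis that neighbouring islet cell types express little or not at all. Neuronatin (Nnat) is an imprinted membrane protein of the endoplasmic reticulum that assists the entry of preproinsulin into the secretory pathway. Ppp1r1a encodes inhibitor-1, which blocks protein phosphatase 1 once protein kinase A has phosphorylated it. Cdh8 encodes a type II cadherin, an adhesion molecule, Vstm2l an immunoglobulin V-set protein, Prss53 a serine protease, and Fam151a and Tmem215 membrane proteins.

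The control library held 7067 barcodes and the library labelled TBL/RBKO 5833, with 241434108 and 185062206 UMIs (molecular tags that each mark 1 captured transcript), and 14 barcode sequences occurred in both. Barcodes with over 2500 detected genes and under 10% mitochondrial UMIs were kept, which left 4747 and 4179, and each was put in a class by its largest hormone at 100 or more UMIs per 10000. This gave 2877 control and 1338 TBL/RBKO insulin cells, 1284 and 1546 glucagon (Gcg) cells, 223 and 374 somatostatin (Sst) cells, 259 and 495 pancreatic polypeptide (Ppy) cells, and 104 and 426 barcodes with no hormone at that level. All 10 β-cell markers reached 10 CPM (UMI counts per 1000000 of the class) in the insulin cells of both libraries, and all 8 α-cell, 4 δ-cell and 2 PP-cell markers did so in the Gcg, Sst and Ppy cells. That level does not tell the classes apart. In control Gcg, Sst and Ppy cells 9 of the 10 β-cell markers also reached it, and the 2 PP-cell markers reached it in every class. The lists also hold the hormones that set the classes, so these counts are no independent check of the labels. The targeted genes went against the labels: Tbl1x stood at 96.9 CPM in control insulin cells and at 350.8 CPM in those of the library labelled TBL/RBKO, and Tbl1xr1 at 20.0 and 128.6 CPM. Cre had 0 UMIs in all control classes and 3108 UMIs, in 274 insulin cells, in the library labelled TBL/RBKO. There it was also found in 13 Gcg cells (15 UMIs), 2 Sst cells (2), 15 Ppy cells (43) and 4 barcodes without a hormone (5). A 3′ count can come from sequence outside the deleted exons, so these genes do not check the deletion itself.

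The insulin cells of the 2 libraries differed in depth, in insulin and in markers of other cells. The median was 53346 UMIs per control cell and 67897 per TBL/RBKO cell, and 49.5% and 76.7% of cells had 6000 genes or more. Insulin made up 49.6% and 27.9% of all UMIs of these cells, and the median mitochondrial share was 2.55% and 3.84%. Summed PP-cell markers stood at 7572 and 52811 CPM and summed ductal markers at 25.9 and 216.4 CPM, of which Krt19 had 1.12 and 63.6 CPM and Spp1 23.8 and 149.8 CPM. A second hormone was found in 13.8% and 44.4% of the cells above 2000 insulin UMIs per 10000, and the part of these differences in the results below was not tested beyond the subsets given. Over 2000 insulin UMIs per 10000 were 2673 control and 761 TBL/RBKO insulin cells, and under it 204 and 577. The 2 low-insulin groups were not alike: the control ones had a median of 10083 UMIs and 223 insulin UMIs per 10000, where control Gcg cells held a median of 97.1, and summed macrophage and endothelial markers of 1008 and 514 CPM, against 21.8 and 30.9 CPM in the TBL/RBKO ones, which had a median of 62217 UMIs. Of the latter, 74.9% also held Ppy at 100 per 10000. No doublet caller was run, and the share of doublets among cells with a second hormone was not tested.

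By GENCODE vM39 on GRCm39, the build given by the submitters' processing notes, Nnat lies on chromosome 2 at 157401879-157404573 (plus strand) within the span of Blcap on the opposite strand, and Vstm2l on chromosome 2 at 157756523-157786639 (plus). Cdh8 spans chromosome 8 at 99751103-100144308 (minus), Ppp1r1a chromosome 15 at 103436942-103446455 (minus), Prss53 chromosome 7 at 127485013-127490909 (minus), Fam151a chromosome 4 at 106591081-106610587 (plus) and Tmem215 chromosome 4 at 40472180-40477168 (plus). Prss53 shares 353 bases with Vkorc1 on the same strand and lies along the readthrough gene Gm21974, so reads there could be split between them. In insulin cells Gm21974 had 19 and 18 UMIs, and Vkorc1 45.1 and 56.3 CPM.

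RefSeq promoter windows of 300 bases around a gene start (table build GRCm38.p6) were matched for 5 of the 7 genes, in 6 windows. Each matched GRCm39 exactly once, and positions are given with the windows shown. Those of Prss53 and Cdh8 lie inside the GENCODE span of the gene, and so does a further Tmem215 window (chr4:40472880-40473179) that is not shown. Windows of Prss53 and Tmem215, whose levels were most like that of Ins2 over cell classes, and of Cdh8 and Nnat, whose levels were least like the other genes', are shown 5′ to 3′ on the gene's strand. Capitals mark TAATTA, the homeodomain core, and TGCTGA, the core of the MAF recognition site, on either strand.
Prss53, chr7:127490093-127490392: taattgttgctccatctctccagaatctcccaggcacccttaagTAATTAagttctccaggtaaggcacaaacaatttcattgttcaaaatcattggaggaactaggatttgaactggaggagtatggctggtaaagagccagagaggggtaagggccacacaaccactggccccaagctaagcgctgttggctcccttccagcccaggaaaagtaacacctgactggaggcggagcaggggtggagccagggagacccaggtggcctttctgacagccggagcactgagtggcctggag
Tmem215, chr4:40471930-40472229: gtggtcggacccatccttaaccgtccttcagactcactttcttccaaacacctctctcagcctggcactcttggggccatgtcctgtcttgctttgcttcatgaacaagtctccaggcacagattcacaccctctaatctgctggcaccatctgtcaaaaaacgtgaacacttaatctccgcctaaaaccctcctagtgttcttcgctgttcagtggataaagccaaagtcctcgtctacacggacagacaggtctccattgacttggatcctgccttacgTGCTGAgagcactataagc
Cdh8, chr8:100143054-100143353: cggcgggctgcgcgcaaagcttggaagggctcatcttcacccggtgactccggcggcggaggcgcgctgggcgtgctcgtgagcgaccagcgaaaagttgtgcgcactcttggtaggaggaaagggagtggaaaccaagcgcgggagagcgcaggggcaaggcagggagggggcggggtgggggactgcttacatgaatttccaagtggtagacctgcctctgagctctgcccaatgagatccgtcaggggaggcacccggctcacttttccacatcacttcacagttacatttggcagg
Nnat, chr2:157401748-157402047: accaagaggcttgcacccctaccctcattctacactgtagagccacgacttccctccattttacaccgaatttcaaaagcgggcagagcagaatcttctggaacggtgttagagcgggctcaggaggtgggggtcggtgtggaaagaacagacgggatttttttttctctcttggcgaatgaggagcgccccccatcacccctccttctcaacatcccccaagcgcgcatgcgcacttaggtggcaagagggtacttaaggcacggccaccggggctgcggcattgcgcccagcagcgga

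TAATTA occurred in 1 of the 6 windows, in Prss53 at 206 bases before the start, and in 5.29% of all 32851 windows of the table. TGCTGA occurred in 1 window, of Tmem215, at base 31 after the start, and in 19.5% of all windows. CANNTG, the E-box, was in 5 of the 6 windows, all but that of Nnat, and in 72.3% of all. The forkhead motif TGTTTAC (3.65% of all windows) and the TATA box TATAAA (13.6%) were in none of the 6. With 6 windows, these are matches of letters and not shown to be sites.

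In insulin cells all 7 genes had a lower level in the library labelled TBL/RBKO, by the choice of the genes. Ratios are given as the log2 of CPM in the library labelled TBL/RBKO over control, relative to the median of all genes with a mean of 10 CPM or more, which was itself at 0.31 in insulin cells. A gene is called low at -1 or less on that scale. In all insulin cells 7 of the 7 were low, beside 2.00% of the 7536 genes compared (3.90% were at 1 or more), and their ranks from the lowest ran from 5 for Ppp1r1a to 95 for Prss53. In all, 151 genes were low.

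**Figure D1:**
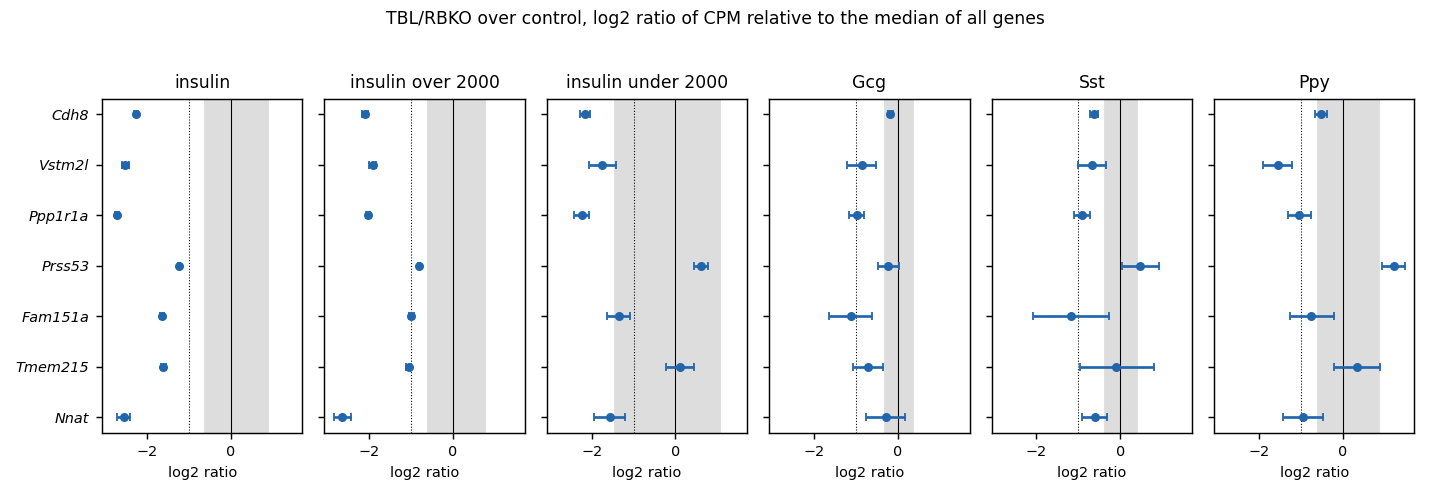
Log2 ratio of CPM (library labelled TBL/RBKO over control, x axis) of each of the 7 genes (rows), relative to the median of all genes with a mean of 10 CPM or more, in 6 classes of cells. Bars are 95% intervals for counting error in 1 library per group, the grey band holds the middle of all genes (percentile 5 to 95) and the dotted line marks -1. In insulin cells all 7 points lie left of -1, and in Ppy cells Prss53 lies at 1.22.

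Nnat had 19.2 CPM (18.6 to 19.8, 3495 UMIs) in control insulin cells and 4.03 CPM (3.65 to 4.44, 407 UMIs) in those of the library labelled TBL/RBKO. The relative log2 ratio was -2.56 (-2.71 to -2.41). Above 2000 insulin UMIs per 10000 it was -2.65, the lowest of the 7193 genes compared there, from 19.2 and 3.31 CPM. Nnat was also the gene with the most uneven spread over cells. After each cell was thinned at random to 5000 UMIs outside the hormones and mitochondrial genes, the variance over control cells above 2000 was 13.2 times the mean (Fano factor), against 1.16 to 2.04 for the other 6. Over TBL/RBKO cells above 2000 this factor was 2.05 for Nnat, below 2.73 for Cdh8 and 2.17 for Ppp1r1a. The 27 control cells with the most Nnat UMIs, up to 263 in a cell, held 33.2% of them, and the 8 such TBL/RBKO cells held 34.0%. Without these cells the relative log2 ratio was -2.67.

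Ppp1r1a, the inhibitor of protein phosphatase 1, had 269.9 CPM (267.5 to 272.3) in control insulin cells and 50.8 CPM (49.4 to 52.2) in the other library, a relative log2 ratio of -2.72 (-2.76 to -2.68). It was the lowest of the 7 in all insulin cells, and its level also differed with insulin within each library. In the library labelled TBL/RBKO it had 72.3 CPM above 2000 insulin UMIs per 10000 and 16.4 CPM below, which was -2.68 relative to the median of all genes for that split. Of 21 compared genes for protein phosphatase 1 and protein kinase A subunits, 0 were low and 0 were at 1 or more, with a median of 0.01. Phactr1, a phosphatase 1 regulator, was the lowest of these at -0.94. Ppp1r3c, under a mean of 10 CPM and so not among the 21, was the highest of the list at 1.44, from 196 and 366 UMIs.

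Cdh8 had 140.0 CPM (138.3 to 141.8) in control insulin cells and 36.2 CPM (35.0 to 37.4) in the other library, a relative log2 ratio of -2.26 (-2.31 to -2.21). In the library labelled TBL/RBKO it had 34.8 CPM above the insulin split and 38.4 CPM below, which was -0.40 relative to the median of all genes. Among the cadherins and catenins, 10 genes were compared. Cdh7, another type II cadherin, was low, with 14.2 and 8.24 CPM and a relative log2 ratio of -1.09, and Jup was at 1.44. The median of the 10 was 0.35.

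Vstm2l had 63.6 CPM (62.4 to 64.7) and 13.7 CPM (13.0 to 14.5), a relative log2 ratio of -2.52 (-2.60 to -2.44). Prss53 had the smallest difference of the 7, with 232.4 CPM (230.2 to 234.7) and 122.0 CPM (119.9 to 124.2) and a relative log2 ratio of -1.24 (-1.27 to -1.21). Fam151a stood at 70.6 and 28.0 CPM (-1.64, -1.70 to -1.58), and Tmem215 at 82.6 and 33.5 CPM (-1.61, -1.66 to -1.56). Genes that overlap them were close to the median of all genes: Vkorc1 and Zfp646 next to Prss53 were at 0.01 and 0.04, and Acot11 across from Fam151a at 0.00. Blcap, across from Nnat on the other strand, had 19.05 and 15.8 CPM and was at -0.57 (-0.66 to -0.49). Pde1b, across from Ppp1r1a, had 41 and 36 UMIs in all.

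The 2 libraries differed in how much insulin their insulin cells held, so the 7 genes were also compared within ranges of insulin level. Insulin is Ins1 and Ins2 together, and Cre was inserted at the Ins1 locus in the TBL/RBKO group only. Above 2000 insulin UMIs per 10000, Ins1 was at -1.53 and Ins2 at -0.28. An equal insulin level is therefore not shown to be an equal state of the cells. Above 2000 insulin UMIs per 10000, 5 of the 7 were low, beside 1.60% of 7193 genes, and 0 were at 1 or more, beside 3.21%. Insulin was not equal there, with a median of 5175 per 10000 for control cells and 3747 for TBL/RBKO cells. The part of this remaining insulin difference in the count of 5 was not tested. Prss53 was at -0.82 and Fam151a at -0.99, both just outside the threshold, and Tmem215 was at -1.06. Within the narrower range of 4000 to 6000 (1901 control and 302 TBL/RBKO cells, median insulin 5177 and 4785 per 10000), 4 of the 7 were low, beside 0.944% of 6888 genes. Those 4 were Nnat (-2.11, -2.41 to -1.83), Cdh8 (-1.59, -1.68 to -1.50), Ppp1r1a (-1.23, -1.29 to -1.17) and Vstm2l (-1.13, -1.24 to -1.02). Prss53 was at -0.41, Fam151a at -0.41 and Tmem215 at -0.61, all below the median of all genes.

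In the range of 2000 to 4000 (387 and 438 cells, median 3511 and 2879) the order was the same for the first 2: Nnat was at -2.95 (-3.27 to -2.64), the lowest of 7890 genes, and Cdh8 at -2.46 (-2.56 to -2.36). Ppp1r1a was at -2.20, Vstm2l at -2.03, Fam151a at -0.997, Tmem215 at -0.52 and Prss53 at -0.33, and 2.66% of all genes were low there. Among cells with a single hormone at 100 per 10000 (170 and 152 cells), Nnat was at -4.52, Cdh8 at -3.20, Prss53 at -0.34 and Tmem215 at -0.44. At the other insulin levels 1 group held few cells: 2 of the 7 were low at 100 to 500 (150 and 75 cells, beside 14.7% of all genes), 5 at 500 to 1000 (13 and 168 cells, 5.26%), 5 at 1000 to 2000 (41 and 334 cells, 4.26%) and 1 at 6000 to 10000 (385 and 21 cells, 1.25%). The 1 at 6000 to 10000 was Nnat, from 377 and 3 UMIs (13.7 and 1.79 CPM). Vstm2l (13.2 and 3.55 CPM) was 1 of the 2 at 100 to 500. Both were under a mean of 10 CPM, so the shares of all genes, taken above that level, do not cover them.

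The 7 genes differed in how their level, as UMI counts per 1000000 outside the hormones and mitochondrial genes, varied with insulin. In control cells, Prss53 went from 291.5 at 2000 to 4000 to 688.2 at 6000 to 10000, Tmem215 from 95.5 to 243.8 and Ppp1r1a from 343.7 to 871.6. Cdh8 went from 274.9 to 205.3, with 327.5 in between, and Nnat from 39.5 to 39.4. In the library labelled TBL/RBKO, Prss53 went from 196.4 to 440.3 over the same bins, the last of which held 21 cells, and Nnat from 4.34 to 5.18. Over control insulin cells thinned to 5000 UMIs, Spearman's rho with the insulin share was 0.45 for Ppp1r1a and 0.40 for Prss53 but 0.00 for Cdh8 and 0.01 for Nnat (2871 cells of 1 library that share depth and insulin as the scale, with no test). In the 1338 TBL/RBKO cells it was 0.44, 0.40, 0.10 and 0.04.

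**Figure D2:**
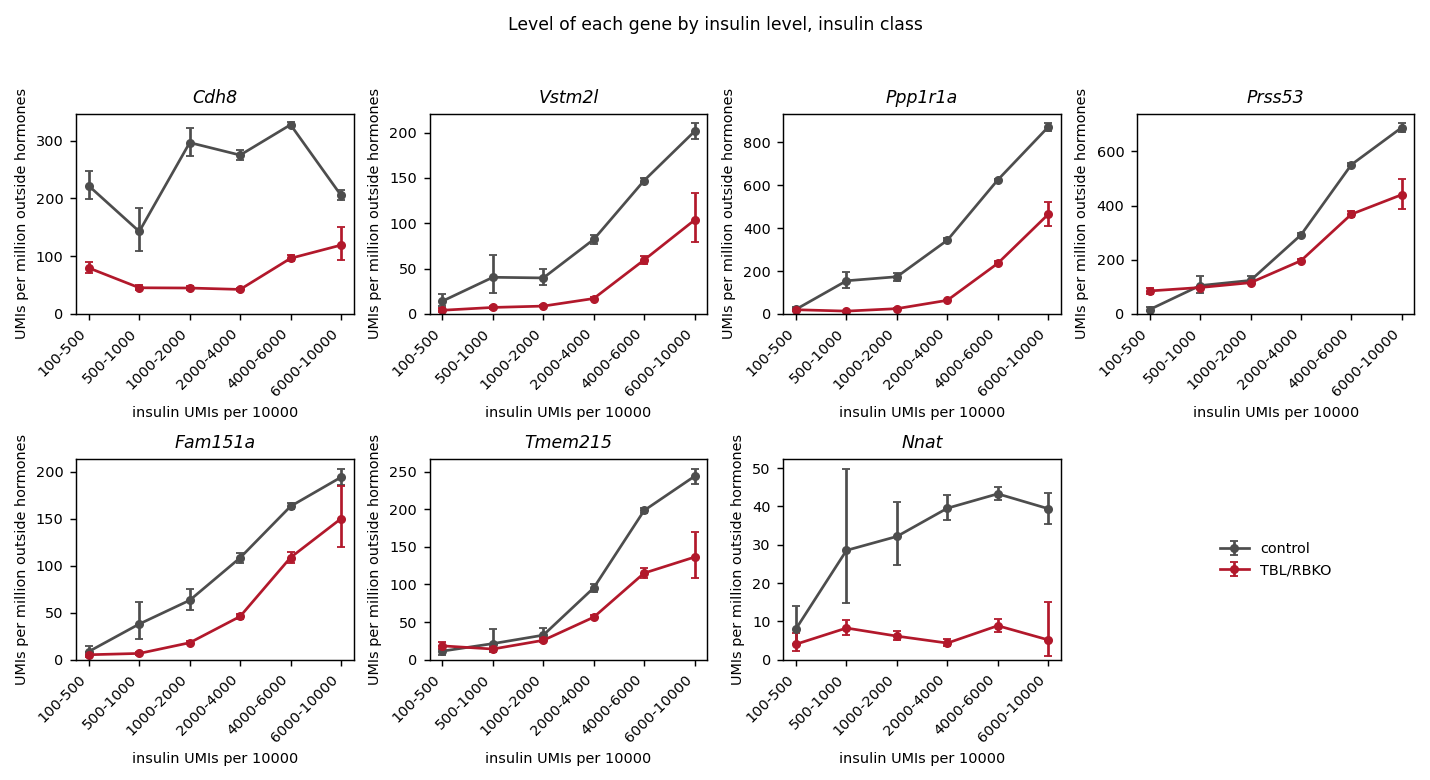
UMI counts per 1000000 outside the hormones and mitochondrial genes (y axis, from 0) of each of the 7 genes in insulin cells of 6 insulin levels (x axis, insulin UMIs per 10000), in the control (grey) and the library labelled TBL/RBKO (red), with 95% Poisson intervals. Above 2000, Prss53 and Tmem215 are higher at higher insulin in both libraries, while Nnat lies between 4.05 and 8.87 in the library labelled TBL/RBKO at the 6 levels.

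In thinned insulin cells the shares with the transcript were lower, and so were the UMIs per positive cell of Ppp1r1a and Cdh8. With means of at most 3.00 UMIs per thinned cell, a lower mean by itself lowers both. These values therefore cannot tell fewer cells with the transcript from less transcript in each. After thinning to 5000 UMIs, Ppp1r1a was found in 86.3% (85.0 to 87.5) of control insulin cells and 25.3% (23.0 to 27.8) of TBL/RBKO ones, with 3.47 and 1.85 UMIs per positive cell. Cdh8 was found in 63.9% and 17.1%, with 2.43 and 1.69 UMIs per positive cell, and Vstm2l in 47.5% and 10.1%. Nnat was found in 10.3% (9.22 to 11.5) and 2.09% (1.39 to 3.01). Prss53 kept the largest share, 80.9% and 53.5%, followed by Tmem215 with 54.0% and 22.3% and Fam151a with 48.8% and 17.7%. For all 7 the interval in the library labelled TBL/RBKO lay below that in the control. These are the cells used for the choice, and shares were computed for the 7 genes only, so no share of all genes stands beside this.

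Without thinning the shares were 89.2% and 47.8% for Cdh8, 93.7% and 93.0% for Prss53 and 33.4% and 15.6% for Nnat, and 6 control insulin cells were too shallow to be thinned. The background was read from barcodes with no hormone, where the thinned shares of Vstm2l, Ppp1r1a, Prss53, Fam151a and Tmem215 were 0 to 4.81% in the control (median of 25559.5 UMIs) and 0.235% to 1.18% in the other library (17474.5 UMIs). For Nnat these barcodes are no measure of background, since some of them held up to 49 (control) and 39 (TBL/RBKO) Nnat UMIs, and its sums there were above the level of free RNA, described with the other classes. Cdh8 was found in 4.81% of the 104 control and 14.6% of the 425 TBL/RBKO barcodes without a hormone, and the latter held B-cell markers at a summed 942.5 CPM against 2.90 CPM in the control. In these barcodes Cdh8 had 17 and 367 UMIs (2.74). Of the 7, only Cdh8 and Nnat (-1.38) reached a mean of 10 CPM there, so that 1 was low, beside 7.41% of the 9535 genes at that level, and 1 was at 1 or more, beside 9.77%. The part of the differing cell types was not tested.

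At matched insulin of 4000 to 6000, the intervals of the shares did not overlap for any of the 7. These cells were part of the choice, and again no share of all genes stands beside this. Nnat was found in 10.1% (8.79 to 11.5) of 1900 control cells and 3.97% (2.07 to 6.84) of 302 TBL/RBKO cells, Cdh8 in 68.6% and 24.2%, and Vstm2l in 50.7% and 23.2%. Ppp1r1a was found in 92.3% and 54.3%, and Prss53 in 87.9% and 77.2%. An insulin cell above 2000 held a UMI of a median of 4 of the 7 genes in control islets, against 2 in the other library. None of the 7 was found in 0.337% of the control cells and 17.0% of the TBL/RBKO cells above 2000.

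**Figure D3:**
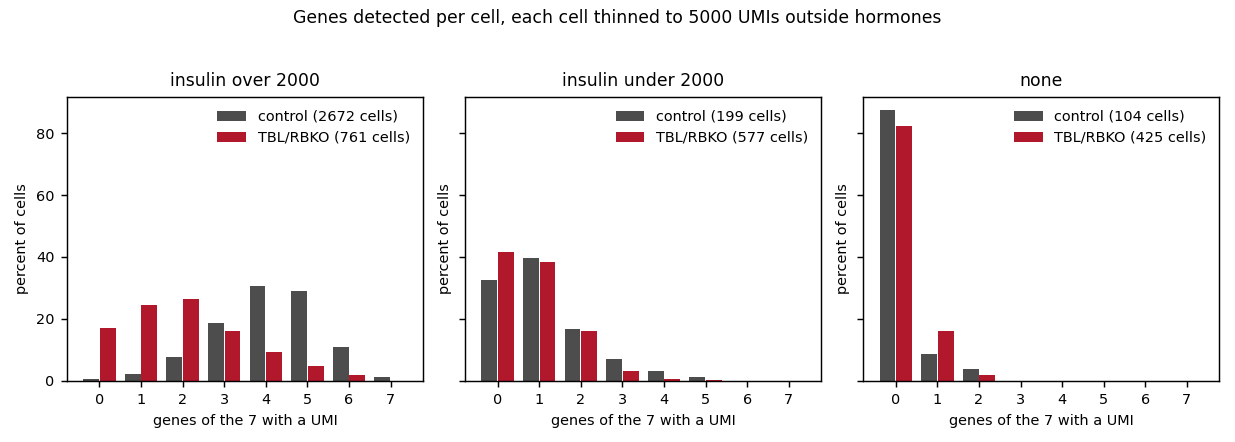
Percent of cells (y axis, from 0) by how many of the 7 genes had a UMI (x axis), each cell thinned to 5000 UMIs outside the hormones and mitochondrial genes, in the control (grey) and the library labelled TBL/RBKO (red). Above 2000 insulin UMIs per 10000 the control peaks at 4 genes and the library labelled TBL/RBKO at 2, and most barcodes without a hormone hold none.

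Outside insulin cells, some of the genes lay far above the level that free RNA would give and others near it. Free RNA is transcript released from broken cells that enters every droplet, and its level was estimated from insulin in the class, times the gene's UMIs per insulin UMI in insulin cells of the same library. The estimate counts all insulin of the class as free, also that of cells with insulin as a second hormone, so it can be too high. In control Gcg cells, Cdh8 had 167.4 CPM where free RNA would give 3.02, and in control Sst cells 260.0 CPM. Per 1000000 UMIs outside the hormones and mitochondrial genes, which takes out the insulin that fills insulin cells, Cdh8 stood at 311.2 in control Sst cells, 301.1 in insulin cells and 221.7 in Gcg cells. Nnat had 30.4 CPM in control Sst cells and 20.0 CPM in barcodes without a hormone but 2.78 CPM in Gcg cells. Ppp1r1a and Vstm2l had 81.5 and 25.2 CPM in control Sst cells, where free RNA would give 6.25 and 1.47.

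In control Gcg cells, Prss53 had 8.72 CPM beside 5.02 from free RNA, Tmem215 5.38 beside 1.78 and Fam151a 3.16 beside 1.52. Prss53, Tmem215, Fam151a, Vstm2l and Ppp1r1a were highest in insulin cells among the 5 control classes, in CPM and outside the hormones. Insulin cells were the class used for the choice, which may favour this, and no share of all genes stands beside it. Nnat was highest in Sst cells in CPM, but outside the hormones it stood at 41.3 in insulin cells and 36.4 in Sst cells. Free insulin RNA itself was lower in the library labelled TBL/RBKO, with a median of 18.6 insulin UMIs per 10000 in Gcg cells against 97.1 in the control, and the calls that change with free RNA taken away are given for each class.

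**Figure D4:**
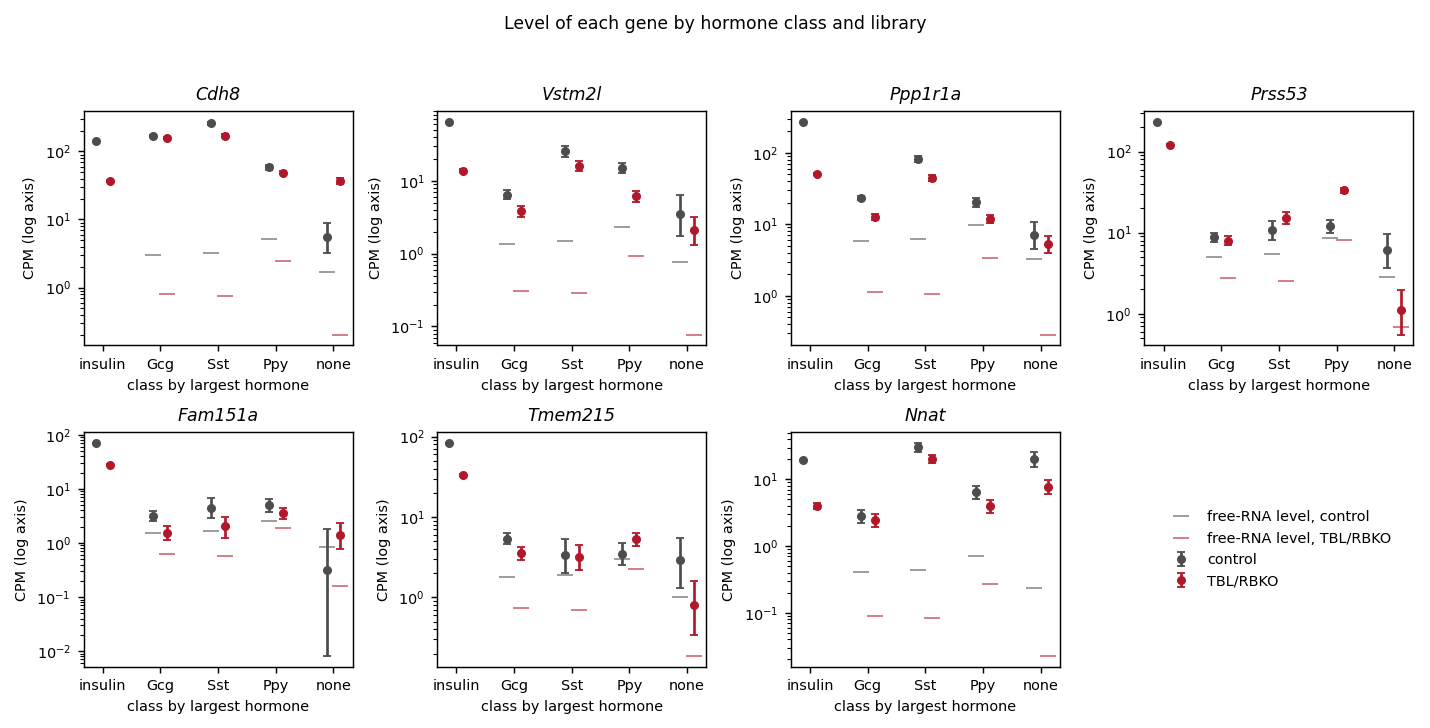
CPM (log axis) of each of the 7 genes in cells classed by their largest hormone, in the control (grey) and the library labelled TBL/RBKO (red), with 95% Poisson intervals. Short bars give the level expected from free RNA, with all insulin of the class counted as free. Cdh8 lies far above them in Gcg and Sst cells, at 167.4 and 260.0 CPM in the control, while Prss53 in control Gcg cells lies at 8.72 CPM beside 5.02.

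The contrasts in the other hormone classes did not enter the choice of the genes. In Gcg cells 2 of the 7 reached a mean of 10 CPM, and 0 of these were low, beside 0.0796% of 8795 genes at that level, and 0 were at 1 or more, beside 0.512%. Fam151a, under that level, was at -1.13 from 91 and 52 UMIs, and was the 1 low gene of all 7. Of the 2, Cdh8 was at -0.18 (-0.23 to -0.12), from 167.4 and 158.9 CPM, and Ppp1r1a at -0.98 (-1.16 to -0.80), from 23.2 and 12.7 CPM. The difference of Cdh8 between Gcg and insulin cells was not tested. Free RNA taken away, 0 of the 7 were low in Gcg cells, with Ppp1r1a at -0.69 and Fam151a at -0.92, whereas 5 were low in cells with under 6000 genes and 5 when cells were averaged with equal weight. These counts are over all 7, not only the 2 above the CPM floor. No share of all genes stands beside them, so they are not like the main count.

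In Sst cells 5 of the 7 reached a mean of 10 CPM, and 0 of these were low, beside 0.356% of 8993 genes at that level, and 0 were at 1 or more, beside 0.723%. Fam151a, under that level, was at -1.16 from 24 and 21 UMIs, and at -0.996 with free RNA taken away. Cdh8 had 260.0 and 171.2 CPM there (-0.62, -0.72 to -0.52), Ppp1r1a 81.5 and 44.0 CPM (-0.91, -1.10 to -0.71), Vstm2l 25.2 and 15.9 CPM (-0.68, -1.02 to -0.34) and Nnat 30.4 and 20.1 CPM (-0.61, -0.91 to -0.31). The fifth, Prss53, was above the median of all genes at 0.47 (0.03 to 0.93), from 10.8 and 15.2 CPM, and at 1.21 with free RNA taken away. The other 4 lay below the median of all genes, nearer to it than in insulin cells, and that difference was not tested. In the library labelled TBL/RBKO 2 Sst cells held a Cre UMI. Of the 7, 3 were low in Sst cells without a second hormone, and 3 in Sst cells with under 6000 genes, counted over all 7 with no share of all genes beside them.

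In Ppy cells 2 of the 7 were low, beside 1.00% of 8285 genes: Vstm2l at -1.55 (-1.90 to -1.21), from 15.0 and 6.10 CPM, and Ppp1r1a at -1.03 (-1.30 to -0.76), from 20.2 and 11.8 CPM. Both were among the 4 of the 7 that reached a mean of 10 CPM. With free RNA taken away Vstm2l was at -1.51 and Ppp1r1a at -0.51, no longer low, and neither was low in cells with under 6000 genes or without a second hormone. Prss53 was the 1 gene at 1 or more, beside 4.13% of all genes, with 11.98 CPM (10.0 to 14.2, 133 UMIs) in the control and 33.3 CPM (30.9 to 35.8, 698 UMIs) in the library labelled TBL/RBKO, a relative log2 ratio of 1.22 (0.952 to 1.4996). Free RNA would give 8.51 and 8.22 CPM, and without it the ratio was 2.64. Insulin was 1.82% and 1.88% of all UMIs of these cells, while the median cell held 71.4 and 20.0 per 10000. Insulin of a part of the cells was thus counted as free RNA, so that estimate can be too high. In the same cells Tbl1x had 103.0 and 366.5 CPM, Ins2 13445 and 17070 CPM, and 31.5% of the TBL/RBKO Ppy cells held insulin at 100 per 10000, against 24.3% in the control. A Cre UMI was found in 15 of the TBL/RBKO Ppy cells (3.03%). The part of these values in the Prss53 result was not tested.

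The insulin cells of the library labelled TBL/RBKO were also split by what else they held. In cells with insulin alone (2409 control and 525 TBL/RBKO cells), Nnat was at -2.71, Cdh8 at -2.11, Ppp1r1a at -1.85 and Vstm2l at -1.81, while Tmem215 at -0.97, Fam151a at -0.88 and Prss53 at -0.84 were not low. In cells with insulin and Ppy (41 and 404 cells), Ppp1r1a was at -3.22, Nnat at -3.15, Vstm2l at -2.85, Cdh8 at -2.36, Fam151a at -2.04, Tmem215 at -1.17 and Prss53 at -0.97. In the 274 cells with a Cre UMI, set against all control insulin cells, the ratios ran from -2.78 for Nnat to -0.95 for Prss53, and in the 1064 without one from -2.81 for Ppp1r1a to -1.33 for Prss53. Cre-negative cells are not shown to be unrecombined.

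Below 2000 insulin UMIs per 10000, 5 of the 7 were low, beside 7.86% of 9058 genes, and 0 were at 1 or more, beside 5.72%. Prss53 had 65.0 CPM in the control and 84.4 CPM in the library labelled TBL/RBKO there (0.62, 0.45 to 0.79), and Tmem215 18.8 and 17.1 CPM (0.10, -0.22 to 0.43). The control cells of this range were the shallow barcodes described above, so the 2 sides are not like for like.

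Genes with a related role gave the wider frame in insulin cells. Of 41 compared genes of a mature β-cell list, taken from the study and holding 3 of the 7 (Ppp1r1a, Vstm2l and Prss53), 13 were low and 0 were at 1 or more, with a median of -0.49 beside 0 for all genes. These 3 are among the 13 and were chosen for their low levels in the same cells. The paper takes its β-cell marker sets from Hrovatin et al., and this list was picked with earlier results of these data known. Slc2a2, the glucose transporter of β-cells, was the lowest, with 315.7 and 55.3 CPM (-2.82). Fxyd2, under a mean of 10 CPM and so not among the 41, was the highest at 3.32, from 142 and 973 UMIs. Of 15 islet transcription factors, Mafa (463.2 and 85.5 CPM, -2.75), an activator of insulin transcription, and Nkx6-1 (188.6 and 114.9 CPM, -1.02) were low and Glis3 was at 1.26, with a median of -0.01.

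Of 15 genes for the signal peptidase and the translocon, the machinery that Nnat works with, 0 were low and 0 at 1 or more, from -0.41 for Ssr2 to 0.28 for Ssr4. Of 14 compared imprinted genes, a group that Nnat belongs to, 0 were low and 0 at 1 or more, with a median of 0.16. Nap1l5 was the lowest at -0.97. Asb4, under a mean of 10 CPM and so not among the 14, was the highest at 1.40, from 457 and 830 UMIs. Among 17 family relatives of the 7, only Cdh7 reached a mean of 10 CPM, and Prss36, under it, was the highest at 0.04.

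The genes whose level was most like that of each of the 7 were sought over 12 sums, the 6 classes in each library, by Pearson's r of log2(CPM + 1) among 11445 genes. This describes sums that share libraries and classes, with no test. Ppp1r1a was closest to Grin1 (0.98), a glutamate receptor subunit, and to Vstm2l (0.97), and Vstm2l to Ppp1r1a, Grin1 (0.95) and Cntnap2 (0.92). Prss53 was closest to Prlr (0.98), the prolactin receptor, Ins2 (0.98) and Ucn3 (0.96), and Tmem215 to G6pc2 (0.98), Ins2 (0.98) and Gad1 (0.96). Fam151a was closest to Olfm4 (0.98), Sytl4 (0.96), which encodes a protein of insulin granules, and Trpm5 (0.95).

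Cdh8 was closest to Dpp4 (0.97), Cryzl2 (0.97) and Cfap36 (0.97), and its r with the other genes ran from 0.58 with Ppp1r1a and 0.51 with Vstm2l to 0.12 with Nnat. Nnat was closest to its overlapping neighbour Blcap (0.91), then Slc12a7 (0.90) and Dpp7 (0.89), and its r ran from 0.49 with Vstm2l and 0.43 with Ppp1r1a to 0.01 with Tmem215. Prss53 and Tmem215 had r of 0.96 with each other.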

How the data were processed

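Islet cells of 1 control and 1 TBL/RBKO library were profiled. The deposited values are raw UMI counts for each gene and barcode, the filtered output of Cell Ranger 7.1.0 as run by the authors, on GRCm39 (mm39) by the submitters' processing notes. By the study's methods ambient RNA was removed in a later step than the Cell Ranger output, and cells of 6000 genes or more were left out, which was an alternative here. UMI counts were summed over the barcodes of each class and library and scaled to CPM. Ratios carry exact conditional binomial intervals, sums exact Poisson intervals and shares Clopper-Pearson intervals, which cover counting error only. The ratio functions were tested on simulated data. The 7 genes, the gene lists and the classes were chosen with earlier results of these data known. Named are the 7 genes, the label checks, the lowest and highest list genes with 100 or more UMIs in both sums, overlapping genes and the 3 most similar genes per gene. Other named list genes (Nkx6-1) passed the threshold. Alternatives covered a limit of 6000 genes, scaling, the CPM floor, second hormones, class thresholds, insulin splits, free RNA and thinning to 2000 or 10000 UMIs. Added after the data were seen were cells with a Cre UMI, the 6 ranges of insulin level and leaving out the 1% of cells with the most UMIs. Values were computed in Python 3.11.15 (matplotlib 3.10.9, pandas 2.3.3, scipy 1.17.1, numpy 2.4.6).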

Additional observations from a re-analysis of the deposited data

Results flagged for a closer look

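Prss53 was lower in insulin cells of the library labelled TBL/RBKO and higher in its Ppy cells, at a relative log2 ratio of 1.22, and in its Sst cells, at 0.47 (0.03 to 0.93, from 58 and 158 UMIs). Both were picked out because the direction was opposite to that in insulin cells, and the difference between classes was not tested, with 1 library per group. In Ppy cells the value ran from 0.73 to 2.64 over the alternatives. In Sst cells it ran from -1.44 to 1.21 and was below 0 without cells of 6000 or more genes, without second hormones, with a class threshold of 500 per 10000 and as a mean over cells.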

How the results depend on the processing

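No paired analysis was possible because each group has 1 library, so that fewer than 2 replicate numbers are shared, and no library could be left out. Counts of low genes changed as follows, where the values by insulin level were added after the data were seen. The counts are over all 7 genes, also those under a mean of 10 CPM. Apart from the insulin levels, no share of all genes under the same alternative stands beside them. In all insulin cells the count of 7 became 6 with under 6000 genes, the study's own filter (Prss53 at -0.994), and 4 without second hormones, and by insulin level 2 at 100 to 500, 4 at 2000 to 4000, 4 at 4000 to 6000 and 1 at 6000 to 10000. Above 2000 the count of 5 was 4 without second hormones or with the split at 4000, 6 with no floor on CPM or as a mean over cells, and 7 with the split at 1000. Under 2000 it was 2 with under 6000 genes and 3 without second hormones. In Gcg cells it was 5 with under 6000 genes, 3 without second hormones, 5 as a mean over cells, 2 with all deposited barcodes and 0 with free RNA taken away. In Sst cells it was 3, 3 and 0 under the gene limit, without second hormones and with free RNA taken away, and in Ppy cells 0, 0 and 1. Fam151a under 2000 turned to 0.70 without second hormones. At 100 to 500 Ppp1r1a was at 0.013, Prss53 at 2.54 and Tmem215 at 0.83, and Prss53 was at 0.072 at 500 to 1000 and 0.12 at 1000 to 2000. The cause was not tested. Of the single-gene values under the alternatives other than the added ones, 218 of 342 stayed within the counting interval of the value reported. Under the added ones only 6 of 56 did, and 5 reversed. The share of cells and the count of genes highest in control insulin cells in CPM kept their counts, 7 and 5, under the alternatives run for them (thinning to 2000 or 10000 UMIs, under 6000 genes, free RNA taken away). Both counts rest on the insulin cells used for the choice, and no share of all genes stands beside them. With 1 library per group, depth limits only the counting error, and values under 30 UMIs (Fam151a in Sst cells, 24 and 21) are the least certain.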
